A study of Arabidopsis thaliana with 12 samples.

Results

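The salt response of Arabidopsis roots was compared between *agb1* and the wild type, gene by gene, as the change over 4 h of 150 mM NaCl in *agb1* minus the same change in WT. The 4 groups of 3 one-colour arrays that entered the comparison were *agb1* 4 h, *agb1* 0 h, WT 4 h and WT 0 h, which are all 12 arrays of the series. The mutant was the T-DNA line *agb1-3*, a single insertion allele described as a null, and both it and the WT are of the Columbia-0 accession. RNA came from roots of 7-day-old seedlings grown on half-strength MS medium, with the roots cut off after the treatment. The sample labels name the control as 0 h, whereas the published methods describe control seedlings kept for the same time in medium without added salt, so the difference between the salt and control arrays may or may not hold 4 h of elapsed time. The comparison covered 25183 genes, of which 20545 carry a locus name; the other entries are probes without one. Levels are log2 signals relative to the 75th percentile of the same array, so 0 is the 75th percentile, and 1 unit is a 2-fold difference. They rank samples within a gene and not 1 gene against another.

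*AGB1* encodes the β subunit of the heterotrimeric G protein, which together with the γ subunits relays signals from membrane proteins and is known in roots for its part in defence, in abscisic acid (ABA) responses and in tolerance of salt. Salt stress in roots is known to raise ABA. ABA binds the PYR/PYL/RCAR receptors, which then block the clade A PP2C phosphatases, releasing the SnRK2 kinases that switch on protective genes. Salt also affects the outer barriers of the root, among them suberin, a fatty polyester with aromatic parts laid down in endodermal and outer cell walls.

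The arrays of 1 group were not all alike, which bears on every value that follows. The 2 arrays *agb1* 0 h replicates 1 and 2 differed by less than the noise between repeated spots and were counted as 1 sample, so the test ran on 11 samples. Over 10806 bright probes, 44 differed by more than 1.5-fold between those 2 arrays, against 2422 and 2445 between each of them and replicate 3. By the same rough guide WT 0 h replicates 1 and 3, and replicates 2 and 3, also lay below their estimates, which were larger there (spreads of 0.1501 and 0.2201 log2, against 0.2166 and 0.2318 for repeated spots). Those arrays were kept as separate samples, since no array of WT 0 h stood apart from its partners (209 to 567 probes over 1.5-fold), but this choice carries most of the calls: with either pair counted as 1 sample, 2 of the 45 differences between responses given next still passed the adjusted threshold. Of the other arrays, *agb1* 4 h replicate 1 stood apart with 1757 and 1471 such probes against its partners, which differed in 459, and WT 4 h replicate 3 with 2667 and 1854, against 911. In the mutant itself *AGB1* read 0.88, 0.39 and 0.67 in *agb1* 4 h and 0.07, -0.10 and 0.63 in *agb1* 0 h, against 1.58, 1.32 and 1.26 in WT 4 h and 1.42, 1.64 and 1.46 in WT 0 h. The mutant was below WT on every array, the difference at 0 h being -1.20 (limma, adjusted p = 0.03396), while a second *AGB1* probe gave 0.45 at 0 h; where either probe lies relative to the insertion is not known here. All 18 root markers were above background on all arrays, and so were all 15 shoot markers, whose summed level was 25.5 to 30.8 in *agb1* 4 h, 11.55 to 18.03 in *agb1* 0 h, 15.07 to 41.96 in WT 4 h and 22.85 to 29.13 in WT 0 h.

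Where the salt responses differed, those of *agb1* were mostly smaller than those of WT. For some of these genes the *agb1* level at 0 h already lay part of the way towards the salt level of WT. In WT 1465 genes rose (5.82% of those tested) and 1004 fell (3.99%), by adjusted p under 0.05 and at least 2-fold. In *agb1* 289 rose (1.15%) and 130 fell (0.516%), with a smaller sample at 0 h. Those counts do not by themselves show a difference between genotypes, which was tested gene by gene. The response of *agb1* was lower than that of WT for 22 genes (0.0874%) and higher for 23 (0.0913%) at adjusted p under 0.05, against 1 lower and 1 higher with WT 0 h replicates 1 and 3, or 2 and 3, as 1 sample. To describe functions, a looser rule was used: an unadjusted p under 0.05 with a difference of at least 2-fold, which held for 914 genes in the lower direction (3.63%) and 613 in the higher direction (2.43%). Genes counted by the looser rule are given as counts beside these shares and are not individually established. After another background correction (normexp) the looser rule gave 312 lower and 4535 higher genes, and the median response difference over all genes was 0.35 in place of 0.05.

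**Figure D1:**
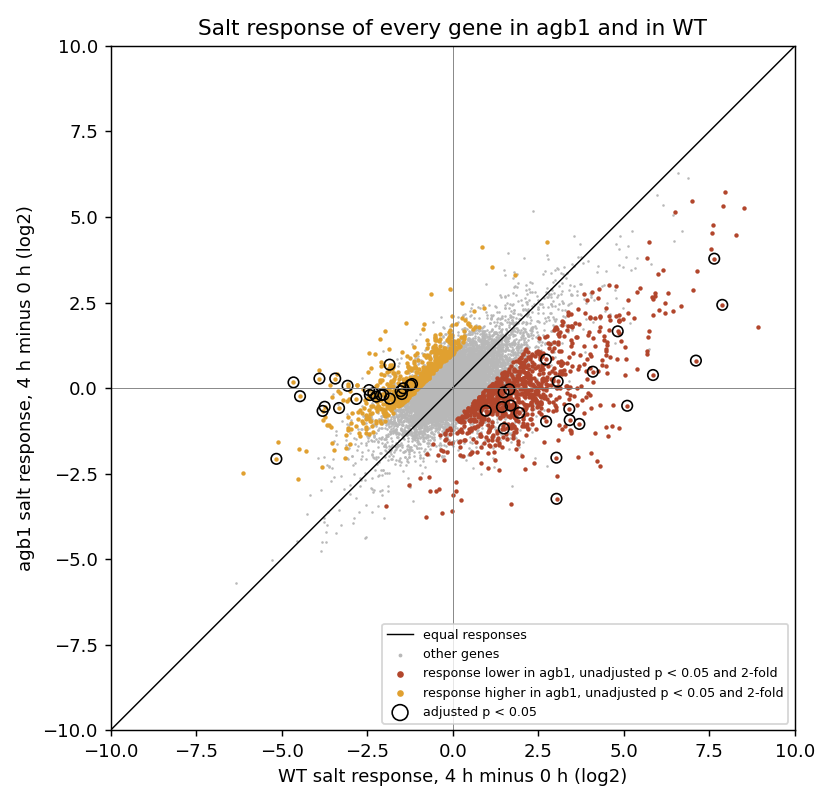
Salt response in agb1 roots (vertical axis) against salt response in WT roots (horizontal axis), each as log2 4 h minus 0 h, with 1 point per gene tested and a diagonal where the responses are equal. Red points (914) are genes with a lower response in agb1 by the looser rule and orange points (613) those with a higher one, while black circles mark the 45 genes past the adjusted threshold, most of which lie nearer to 0 on the agb1 axis than on the WT axis.

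Of the genes that met the looser rule, 998 also had a called salt response in at least 1 genotype and could be sorted by their fitted responses. A response was lost, meaning at least 2-fold in WT and under 2-fold in *agb1*, for 756 genes, of which 462 were rises in WT and 294 were falls. It was weaker but still at least 2-fold for 160 genes, 128 of them rises. The fitted direction was reversed for 29 genes. A response was gained in *agb1*, being under 2-fold in WT, for 48 genes. It was stronger in *agb1* for 5 genes, and each of these 5 had a group in which no array was above background. No lost response could pass the call in *agb1*, since that class is defined by a change under 2-fold there. Of the 160 weaker responses 63 passed the call in *agb1*, and of the 29 reversals only 4.

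Among higher responses the 0 h level carried the difference for more genes than the 4 h level did, whereas among lower responses the numbers lay closer together. The difference was assigned to one time when the gap between *agb1* and WT was at least 2 times as large there as at the other time, and otherwise to both. For lower responses the 4 h level carried 272 genes (29.8%), the 0 h level 328 (35.9%) and both 314 (34.4%). For higher responses the 4 h level carried 81 (13.2%), the 0 h level 350 (57.1%) and both 182 (29.7%). Without WT 4 h replicate 1 the lower responses were carried by the 4 h level in 395 cases and by the 0 h level in 339; without *agb1* 0 h replicate 3 the 0 h level carried 675 lower and 785 higher responses. The 462 lost rises had a median gap of 0.99 at 0 h and -0.92 at 4 h, so that *agb1* started above WT and ended below it. The 294 lost falls had a median gap of -1.14 at 0 h and 0.38 at 4 h, so that *agb1* lay below WT before salt and close to it afterwards. Over all genes, which were not chosen by their responses, these medians were 0.00 and 0.05. The response difference used to choose the lost responses is the gap at 4 h minus the gap at 0 h. The signs of their median gaps are therefore in part set by the choice.

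Tested directly, *agb1* differed from WT at 0 h for 325 genes in the lower direction (1.29%) and 149 in the higher direction (0.592%). The 0 h counts rested on the WT 0 h arrays: they were 38 and 10 without replicate 1, 61 and 18 without replicate 2, and 34 and 11 without replicate 3. Dropping WT 4 h replicate 2 gave 186 and 81, dropping replicate 3 of the same group 515 and 299, and dropping *agb1* 0 h replicate 3 gave 193 and 84. With replicate number as a block the 0 h counts were 101 and 51. At 4 h *agb1* was lower for 261 genes (1.04%) and higher for 155 (0.615%). In the same blocked fit of all arrays 103 genes were higher in *agb1* at 4 h. Without *agb1* 4 h replicate 3 and without a block, the 4 h counts were 126 lower and 36 higher. Among the 914 lower responses 81 had a called gap at 0 h, 151 at 4 h and 7 at both. Among the 613 higher responses the order was the other way, with 119 called at 0 h, 33 at 4 h and 3 at both.

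**Figure D2:**
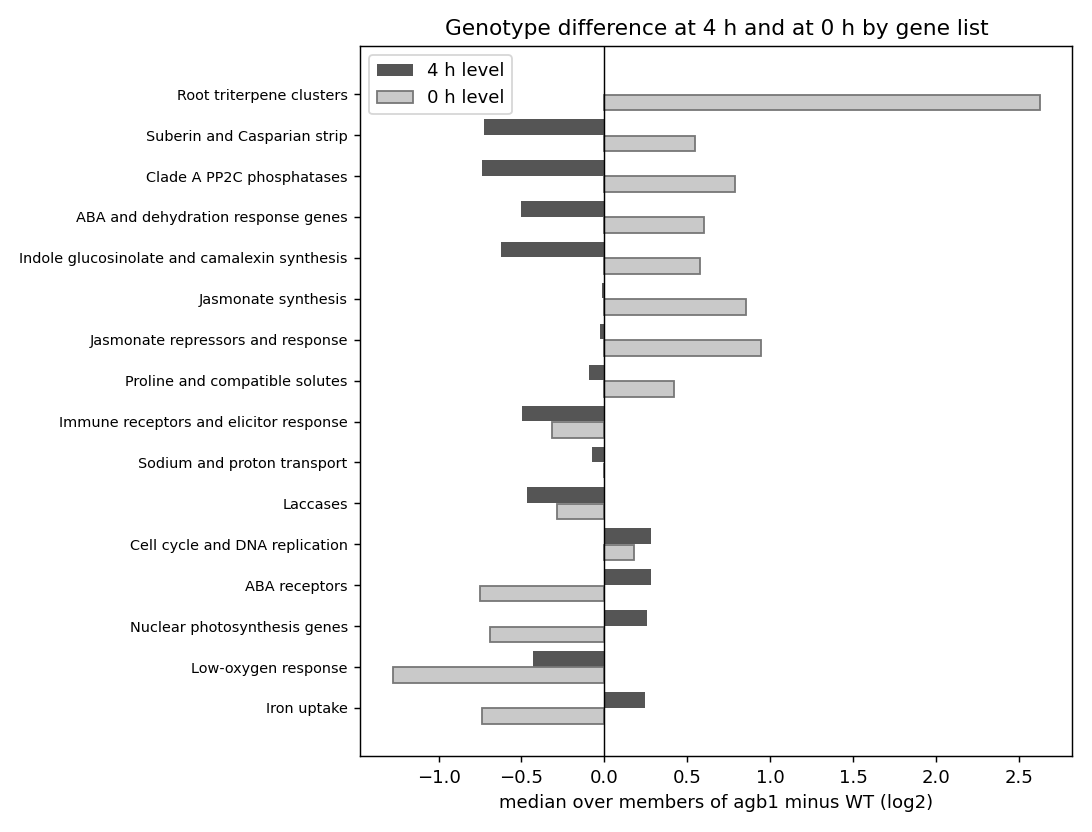
Median over the members of 16 gene lists of the difference between agb1 and WT (log2, horizontal axis), with a dark bar for the 4 h level and a light bar for the 0 h level. The root triterpene clusters have a median gap of 2.63 at 0 h and 0.00 at 4 h, with no member called at either time. The low-oxygen genes have one of -1.28 at 0 h.

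Suberin synthesis genes had salt rises in WT that were lost in *agb1*, with the larger gap at 4 h. Of 16 suberin genes 13 rose in WT and none in *agb1*, against 5.82% and 1.15% of all genes. The same number, 13, had a lower response in *agb1* by the looser rule. The median response difference over the 16 genes was -2.67, against 0.05 over all genes. The median level of the 16 genes was 0.32, 1.03 and 2.13 on the WT 4 h arrays and below 0 on each other array. *GPAT5*, an acyltransferase that links suberin acids to glycerol, read -1.81, -0.50 and -0.52 in *agb1* 4 h, -0.74, -0.73 and -1.26 in *agb1* 0 h, 0.70, 1.30 and 2.17 in WT 4 h and -1.96, -1.88 and -1.98 in WT 0 h. Each WT 4 h array lay above every other array, while the *agb1* arrays with and without salt overlapped. *GPAT5* rose 10.1-fold in WT, against a fitted 1.04-fold in *agb1* (response difference -3.27 ± 0.63 SE, adjusted p = 0.09706 by limma).

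*ABCG6*, a transporter of the ABCG family needed for suberin, read 0.35, 1.96 and 0.97 in *agb1* 4 h, 0.70, 0.73 and 0.06 in *agb1* 0 h, 2.76, 3.52 and 4.22 in WT 4 h and -0.39, -0.24 and -0.42 in WT 0 h. The same separation was seen, with WT 4 h alone at the top. *ABCG6* changed 1.63-fold in *agb1*, not a called rise, against 14.4-fold in WT (response difference -3.15 ± 0.67, adjusted p = 0.1182). *GPAT7*, a paralogue of *GPAT5*, changed 1.60-fold in *agb1* and 20.7-fold in WT, and the fatty acyl reductase gene *FAR5* 1.38-fold and 9.63-fold, the first of each pair again not called. The elongase gene *KCS2*, the ω-hydroxylase gene *CYP86A1*, *CYP86B1*, which hydroxylates very long chains, *ABCG2*, *ABCG20*, *KCS20*, the feruloyl transferase gene *RWP1* and the regulators *MYB53* and *MYB93* made up the 13.

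Genes of the Casparian strip, the lignified band of the same endodermal cells, gave other values. Of 9 such genes none met the looser rule, and their median response difference was 0.54 (range -0.26 to 0.72), on the other side of 0 from the suberin genes. *CASP4* and *CASP5*, which encode membrane scaffold proteins of the strip, rose in both genotypes, by 2.19 and 1.93 in *agb1* and by 1.76 and 1.28 in WT. The division of the original list of 25 into these functions was made after the values had been seen and was not tested. Without a single array the number of the 25 with a lower response was 12 to 14, and it was 10, with 1 higher, when *agb1* 0 h replicate 3 stood alone for its group.

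**Figure D3:**
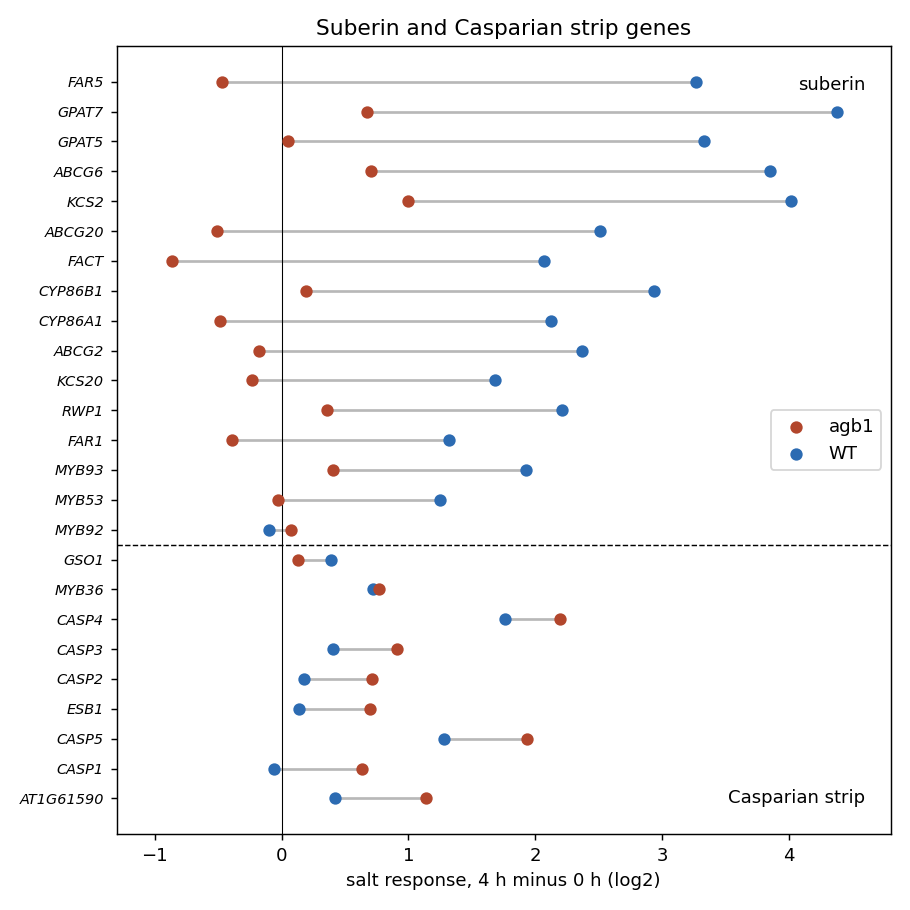
Salt response (log2 4 h minus 0 h, horizontal axis) of the 16 suberin genes (above the dashed line) and the 9 Casparian strip genes (below it), with a red point for agb1, a blue point for WT and a grey line joining them. In all but 1 of the suberin genes the agb1 point lies to the left of the WT point, whereas in all but 1 of the Casparian strip genes it lies to the right.

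Laccases, multicopper oxidases that couple phenolics in walls, included 3 of 17 with a lower response by the looser rule and 2 with a higher one (6 lower on dropping WT 4 h replicate 1, 5 on dropping replicate 3 of *agb1* 0 h or replicate 2 of *agb1* 4 h). *LAC12* read -3.77, -1.55 and -2.65 in *agb1* 4 h, -2.38, -2.17 and -3.82 in *agb1* 0 h, 0.83, 0.29 and 2.90 in WT 4 h and -3.88, -3.72 and -3.48 in WT 0 h. Its WT 4 h arrays again stood above all others, and the remaining groups overlapped. It rose 32.8-fold in WT, against a fitted 1.31-fold in *agb1* (response difference -4.65 ± 1.11, adjusted p = 0.1718). *LAC5* and *LAC13* had response differences of -2.94 and -1.73, and all 3 were carried by the 4 h level. *MYB41*, a factor able to switch on suberin genes, changed 3.88-fold in *agb1* (adjusted p = 0.05349) and 29.2-fold in WT (response difference -2.91 ± 0.57, adjusted p = 0.1008).

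ABA response genes responded to salt in both genotypes, with fewer called rises in *agb1*. Of 48 ABA and dehydration response genes 34 rose in WT and 13 in *agb1*, against 5.82% and 1.15% of all genes. By the looser rule 20 had a lower response and none a higher one, 18 of the 20 being weaker and 2 lost; the median over the 48 was -1.27. Under normexp 9 were lower and the median was -0.48. All 9 clade A PP2C genes, whose products hold the pathway off, had response differences below 0 (median -1.45), 5 of them by the looser rule; under normexp 2 met it and the median was -0.54. Of the 9 genes, 8 rose in WT and 4 in *agb1*.

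*HAI1*, one of these phosphatases, was 13.8-fold up in *agb1* and 200-fold up in WT, with the *agb1* 0 h level 2.98 above WT (adjusted p = 0.01683), and its response difference of -3.86 was -1.35 under normexp. *HAI3* was 23.1-fold up in *agb1* and 191-fold in WT, with a response difference of -3.05 that became 0.48 under normexp, its level in WT 0 h being well above background on 1 of 3 arrays, and *PP2CA* 1.35-fold and 4.63-fold, the *PP2CA* value in *agb1* not being called. *HAI2* was not well above background in WT 0 h, and its rise in WT was at least 51.5-fold (adjusted p = 2.169e-05).

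*ECP63*, which encodes a late embryogenesis abundant protein, passed the adjusted threshold for the response difference. It read -0.99, 0.54 and 0.14 in *agb1* 4 h, -2.31, -2.30 and -2.76 in *agb1* 0 h, -0.32, 1.28 and 0.53 in WT 4 h and -7.41, -6.93 and -7.81 in WT 0 h. At 4 h the genotypes overlapped, while without salt the *agb1* arrays lay above all WT arrays, by 4.85 (adjusted p = 0.006007). In WT 0 h the gene was well above background on 1 of 3 arrays, so the size of its WT rise is not well set. The change in *agb1*, a fitted 5.40-fold, missed the call (adjusted p = 0.05484). The response difference was -5.45 ± 0.72 (limma, adjusted p = 0.02787), and -1.54 under normexp (adjusted p = 0.3914).

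The next pair of genes had gaps mainly at 0 h as well. *HB-12*, a homeobox factor gene induced by ABA, was 4.07 higher in *agb1* at 0 h (adjusted p = 0.01042) and differed by -0.11 at 4 h (adjusted p = 0.943). *NCED3*, whose product makes the first committed step of ABA synthesis, read -0.13, -0.05 and -0.30 in *agb1* 4 h, -2.74, -2.82 and -3.14 in *agb1* 0 h, 0.22, 1.52 and 0.21 in WT 4 h and -4.63, -4.63 and -4.96 in WT 0 h. None of its 4 groups overlapped; it rose 6.97-fold in *agb1* and 41.9-fold in WT (response difference -2.59 ± 0.48, adjusted p = 0.08075; -0.86 under normexp). *GEA6*, an embryonic Em protein gene, differed in that its gap lay at 4 h (-4.16, adjusted p = 0.04226) and was 0.51 at 0 h, where 2 of 3 arrays of each genotype were well above background; its response difference of -4.68 was -0.23 under normexp.

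The receptors at the head of the pathway showed the opposite sign. Of 11 ABA receptor genes 5 fell in WT and none in *agb1*, where 0.516% of all genes fell, against 3.99% in WT. By the looser rule 5 had a higher response in *agb1* (median 0.79). This count became 2 on dropping *agb1* 4 h replicate 1 or, in its place, WT 4 h replicate 2. It became 3 on dropping replicate 2 of *agb1* 4 h, replicate 3 of WT 4 h or replicate 1 or 3 of WT 0 h, and under normexp. *PYL6* read -1.68, -2.01 and -2.19 in *agb1* 4 h, -1.49, -1.61 and -1.21 in *agb1* 0 h, -2.12, -2.86 and -3.28 in WT 4 h and 0.45, 0.72 and 0.53 in WT 0 h. The WT 0 h arrays stood above all others, and the gap between *agb1* and WT at 0 h was -1.94 (adjusted p = 0.02187). *PYL5*, *PYR1* and *RCAR3* had response differences of 1.66, 1.22 and 1.03, none past the adjusted threshold. Among the 10 SnRK2 kinase genes none met the looser rule in either direction (median -0.06).

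**Figure D4:**
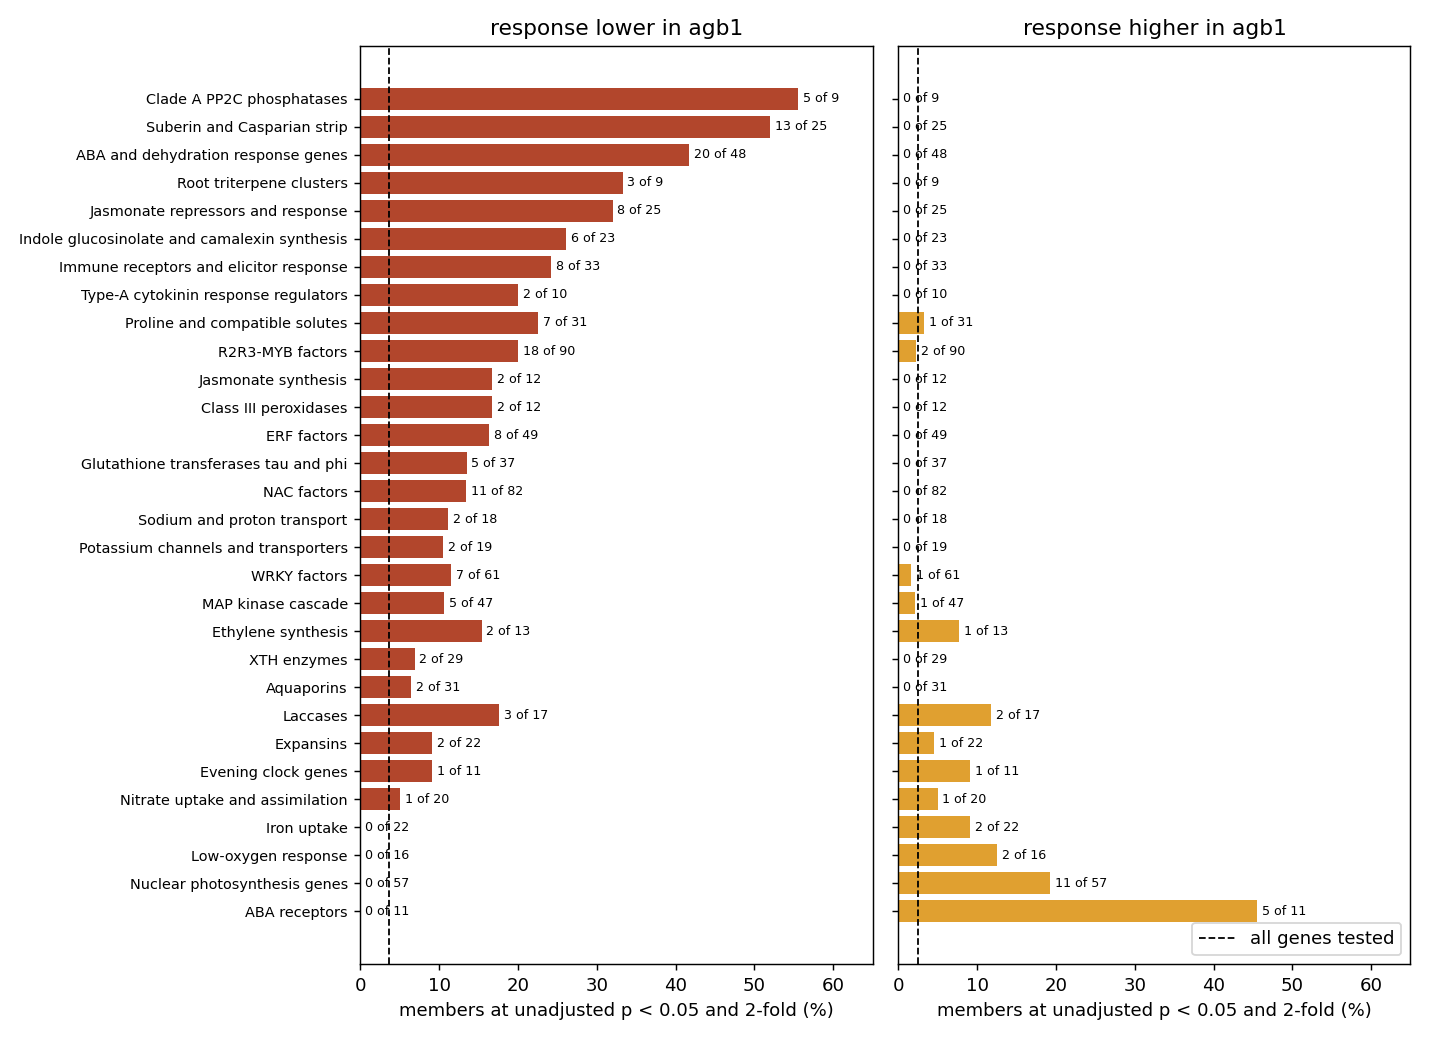
Share of the members of each gene list (percent, horizontal axes) whose salt response was lower in agb1 (left panel) or higher in agb1 (right panel) by the looser rule, for lists with at least 2 such members. The numbers give members meeting the rule of members tested, and the dashed lines mark the shares over all genes tested (3.63% lower and 2.43% higher); clade A PP2C genes (5 of 9) have the longest bar on the left and ABA receptors (5 of 11) on the right.

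Jasmonate genes had their larger median gaps at 0 h. Of 25 jasmonate repressor and response genes 11 rose in WT and none in *agb1*, where 1.15% of all genes rose, against 5.82% in WT. By the looser rule 8 had a lower response in *agb1*, each of the 8 carried by the 0 h level (4 lower and 1 higher under normexp). The median gap over the 25 was 0.95 at 0 h, where 2 genes had a called gap, and -0.03 at 4 h. The 12 synthesis genes all lay below 0, with 2 of them by the looser rule (4 without *agb1* 0 h replicate 3). Those 2 were carried by both times. *LOX3*, the 1 jasmonate gene past the adjusted threshold, was among them, with gaps of 2.385 at 0 h and -1.636 at 4 h. *TAT3*, an aminotransferase gene used as a jasmonate marker, read 1.08, 3.00 and 2.60 in *agb1* 4 h, 1.24, 1.31 and 1.34 in *agb1* 0 h, 2.24, 2.91 and 2.53 in WT 4 h and -2.29, -1.76 and -2.03 in WT 0 h. Only WT 0 h stood apart, and the gap at 0 h was 3.33 (adjusted p = 0.01587), against -0.34 at 4 h. *CYP94B1*, whose product oxidises the active hormone, had a gap of 2.57 at 0 h that missed the threshold (adjusted p = 0.06404).

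The storage protein gene *VSP2* varied widely between arrays. It read -3.73, -1.24 and -0.72 in *agb1* 4 h, 0.43, 0.37 and -1.95 in *agb1* 0 h, -3.87, -0.59 and 1.25 in WT 4 h and -6.16, -5.38 and -5.66 in WT 0 h. The *agb1* 0 h arrays were above all WT 0 h arrays, with replicate 3 well below its partners, and the response difference of -5.79 ± 1.88 was not past the adjusted threshold (adjusted p = 0.2828). With *agb1* 0 h replicate 3 standing alone for its group, 4 of the 25 jasmonate genes had a lower response and 1 a higher one by the looser rule.

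Indole glucosinolates are sulphur-containing defence compounds, and 6 of 23 genes for them and for camalexin had a lower response in *agb1* (median -1.11, with 20 below 0). *IGMT2*, which encodes a methyltransferase acting on the indole ring, read 0.62, 0.80 and 0.88 in *agb1* 4 h, 1.44, 1.38 and 1.23 in *agb1* 0 h, 1.78, 1.79 and 2.15 in WT 4 h and 0.53, 0.39 and 0.48 in WT 0 h. The 4 groups did not overlap, and the order of the times was opposite in the genotypes, although the decrease in *agb1* (-0.55, adjusted p = 0.09128) was not called. A gap of 0.85 before salt (adjusted p = 0.03331) and one of -1.14 after it (adjusted p = 0.004733) gave a response difference of -1.99 ± 0.21 (adjusted p = 0.01827). Its neighbour in the family *IGMT1* had a value of -2.19 (adjusted p = 0.05486). Leaving out WT 4 h replicate 1 raised the number among these 23 genes to 14 and leaving out *agb1* 0 h replicate 3 raised it to 12, whereas it was 3 when *agb1* 4 h replicate 1 was dropped.

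Immune receptor and elicitor response genes differed mainly at 4 h. Of 33 such genes 8 had a lower response in *agb1* and none a higher one, 6 of the 8 carried by the 4 h level, and 7 of the 33 were lower in *agb1* at 4 h. Under normexp 3 had a lower response and 1 a higher one. *EMB1290*, also known as *CRK17*, encodes a cysteine-rich receptor-like kinase. It read -6.80, -6.29 and -6.62 in *agb1* 4 h, -6.35, -6.61 and -7.05 in *agb1* 0 h, -3.15, -4.09 and -3.63 in WT 4 h and -6.37, -6.59 and -7.12 in WT 0 h. Only the WT 4 h arrays stood apart, the others lying together, and the response difference was -2.88 ± 0.43 (adjusted p = 0.04963), turning to 1.17 under normexp. *EP1*, another gene of the same kinase family and chromosomal cluster, was not well above background in *agb1* 4 h. It rose in WT (adjusted p = 0.00463), where 2 of the 3 arrays at 0 h were well above background and no size is given, and it fell at least 2.61-fold in *agb1* (adjusted p = 0.02762). *EP1* in WT 4 h was at least 7.27-fold above *agb1* 4 h (adjusted p = 0.003412).

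*YLS9*, a gene of the NDR1/HIN1 family induced by pathogens, rose 3.45-fold in WT and had no called change in *agb1* (1.19-fold), with a gap of -1.87 at 4 h (adjusted p = 0.009526). *FLS2*, the flagellin receptor, was among the responses gained in *agb1*, with a fall there (adjusted p = 0.04497) to a level well above background on 1 of 3 arrays, against a change of -0.96 in WT (adjusted p = 0.1855); its response difference of -1.67 became 1.51 under normexp. *CML37*, a calmodulin-like calcium sensor gene, was another: it read 0.90, 0.49 and 0.95 in *agb1* 4 h, 2.39, 2.45 and 2.20 in *agb1* 0 h, 2.32, 2.51 and 1.75 in WT 4 h and 1.84, 1.90 and 1.79 in WT 0 h. The *agb1* 4 h arrays lay below all others. *CML37* fell in *agb1* (-1.53, adjusted p = 0.01571) and differed from WT at 4 h by -1.41 (adjusted p = 0.01203), whereas in WT the change was 0.35 (adjusted p = 0.2507). *MKK7*, a MAP kinase kinase gene, was not well above background in *agb1* 4 h, its level in *agb1* 0 h being at least 4.29-fold higher (adjusted p = 0.003771).

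**Figure D5:**
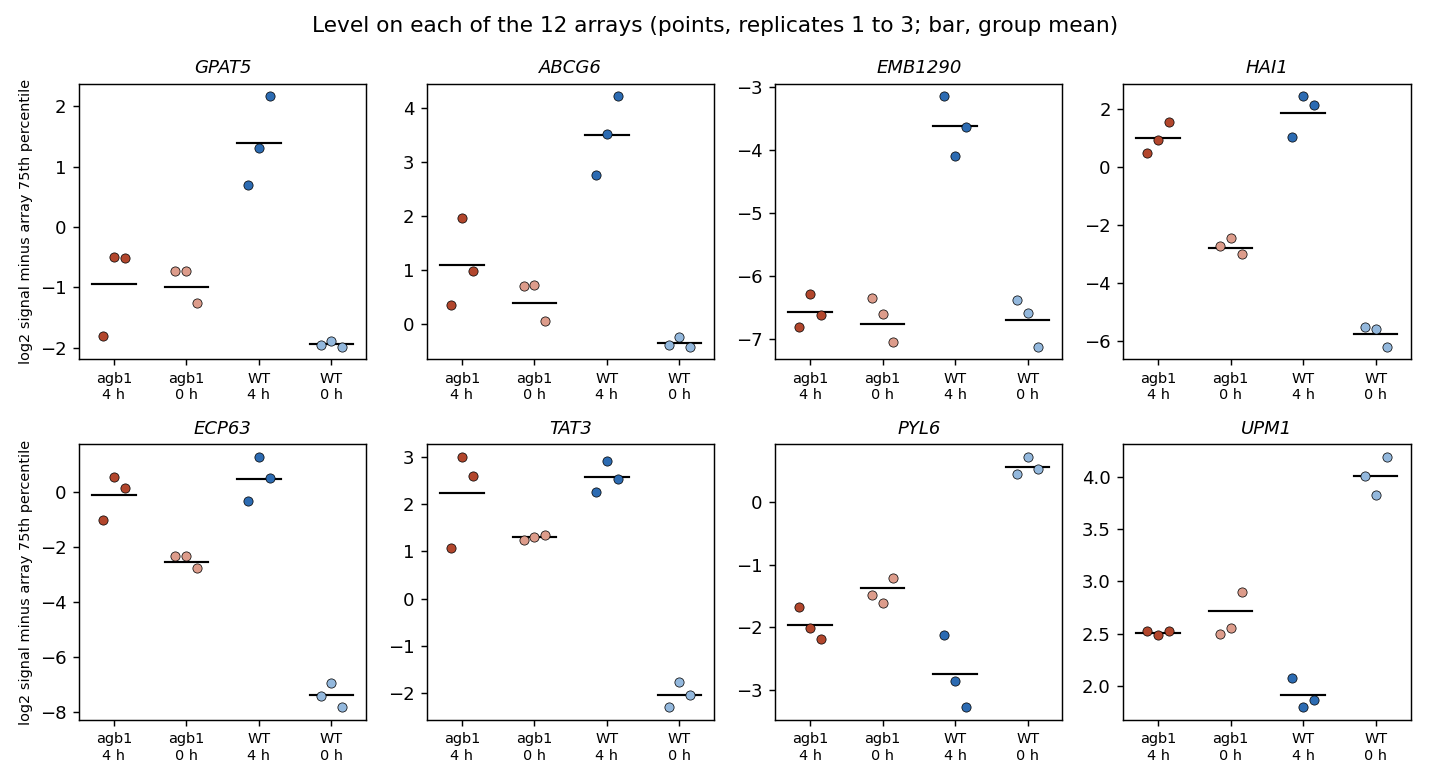
Level of selected genes on each of the 12 arrays (log2 signal, relative to the 75th percentile of the array), by group in the order agb1 4 h, agb1 0 h, WT 4 h and WT 0 h, with the group mean as a bar. In some genes WT 4 h alone stands apart (GPAT5, EMB1290), in others WT 0 h alone (TAT3, PYL6).

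In the families of transcription factors the looser rule was met in the lower direction by 18 of 90 R2R3-MYB genes, 11 of 82 NAC genes, 8 of 49 ERF genes and 7 of 61 WRKY genes, and in the higher direction by 2, 0, 0 and 1. These directions depended on the background correction, since under normexp 2 R2R3-MYB, 2 NAC, 2 ERF and 1 WRKY genes were lower and 12, 11, 3 and 9 higher. The lower ERF genes numbered 13 when WT 4 h replicate 3 was dropped, and the higher WRKY genes 6 when replicate 1 of that group was. *MYB2*, a regulator of genes induced by drought and salt, read -3.66, -3.37 and -3.07 in *agb1* 4 h, -2.70, -2.55 and -3.09 in *agb1* 0 h, -2.53, -2.35 and -2.59 in WT 4 h and -4.07, -4.10 and -4.38 in WT 0 h. WT 0 h lay lowest and WT 4 h highest, the *agb1* arrays lying between them apart from 1 array of *agb1* 0 h within the WT 4 h range, and the response difference was -2.20 ± 0.28 (adjusted p = 0.02344; -0.19 under normexp). *DREB1A*, a cold and drought regulator, changed 1.41-fold in *agb1*, not called, and rose 19.0-fold in WT (-3.76 ± 0.63, adjusted p = 0.05643; -1.52 under normexp).

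Whether 0 h or 4 h carried the difference varied within these families. *WRKY30*, a gene of the oxidative and pathogen response, had a gap of -4.81 at 4 h (adjusted p = 0.002941), and *NAC036* one of -2.70 (adjusted p = 0.003412). *TDR1*, an ERF gene, had a gap of -0.01 at 0 h and -2.70 at 4 h (adjusted p = 0.007034). The response differences of *WRKY30*, *NAC036* and *TDR1* were -2.77, -2.43 and -2.69, and under normexp -0.88, -0.17 and -0.77. *ESE1*, an ERF gene induced by ethylene and salt, was not well above background in WT 0 h, and it rose at least 37.8-fold in WT (adjusted p = 1.349e-05). Its *agb1* values were -5.74, -4.25 and -5.15 at 4 h and -6.01, -5.41 and -5.99 at 0 h, against -1.97, -2.49 and -2.51 in WT 4 h. The adjusted p of its response difference was 0.004857 by limma. Under normexp the fitted difference was -0.06 in place of -6.31, neither number being a fold.

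Among ion transporters few genes of the sodium route differed. Of 18 sodium and proton transport genes 2 had a lower response and the median was -0.11 (0.06 under normexp), with fitted values of -0.25 for the plasma membrane exchanger gene *SOS1* and -0.18 for the vacuolar exchanger gene *NHX1*. *HKT1*, the transporter that takes sodium back out of the xylem sap, read 0.11, -0.08 and 0.65 in *agb1* 4 h, -0.28, -0.34 and -0.17 in *agb1* 0 h, -0.04, -0.42 and -0.50 in WT 4 h and -2.16, -2.40 and -2.26 in WT 0 h. The WT 0 h arrays lay below all others, and WT 4 h overlapped both *agb1* groups. *HKT1* was 2.03 higher in *agb1* at 0 h (adjusted p = 0.006007) and rose 3.87-fold in WT, against a fitted 1.38-fold in *agb1*; the response difference was -1.48 ± 0.30 (adjusted p = 0.1075). *CAX3*, a vacuolar calcium and proton exchanger gene, followed at -2.03 and *GORK*, the outward potassium channel gene, at -1.67, both past the looser rule only.

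Among 31 genes for proline and other compatible solutes 7 had a lower response and 1 a higher one (3 and 2 under normexp, and 11 lower without *agb1* 0 h replicate 3). *GolS2*, a galactinol synthase gene, had a response difference of -3.40 ± 0.57 (adjusted p = 0.05643), with a rise of 22.5-fold in WT against a fitted 2.13-fold in *agb1*.

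Of the 613 genes with a higher response in *agb1*, 294 were falls in WT that were lost, and for 171 of these the difference was carried by the 0 h level. *UPM1*, a methyltransferase gene of the sirohaem route that supplies nitrite and sulphite reductase, read 2.52, 2.48 and 2.53 in *agb1* 4 h, 2.49, 2.56 and 2.90 in *agb1* 0 h, 2.07, 1.80 and 1.87 in WT 4 h and 4.00, 3.83 and 4.19 in WT 0 h. The *agb1* arrays lay between the WT groups, without overlap with either. The response difference was 1.89 ± 0.22 (adjusted p = 0.01827), with a gap of -1.29 at 0 h (adjusted p = 0.01042).

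Both *G6PD3*, a plastid glucose-6-phosphate dehydrogenase gene, and *NIR1*, the nitrite reductase gene, also differed mainly at 0 h. *G6PD3* had gaps of -1.05 at 0 h (adjusted p = 0.01587) and 0.48 at 4 h. *NIR1* had gaps of -1.26 at 0 h (adjusted p = 0.03339) and 0.13 at 4 h, with a response difference of 1.40 ± 0.30 that missed the adjusted threshold (adjusted p = 0.1313). Of the 20 nitrate uptake and assimilation genes 1 had a higher and 1 a lower response by the looser rule (5% each, against 2.43% and 3.63% of all genes). *PPT2*, a plastid phosphate translocator gene, was well above background in WT 0 h only, at least 8.03-fold over *agb1* 0 h (limma, adjusted p = 0.002119). It entered the test through that group alone, so this gap is in part set by the filter.

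*AT5G19890*, a class III peroxidase gene, was the single one of the 23 higher responses carried by the 4 h level, with gaps of 2.74 at 4 h (adjusted p = 0.002187) and -0.34 at 0 h. It fell in both genotypes, 4.19-fold in *agb1* and 35.6-fold in WT. The next gene along the chromosome in the RefSeq order, *AT5G19880*, also a peroxidase, had a fitted response difference on the other side of 0. It rose in WT, and WT 4 h was at least 4.31-fold above *agb1* 4 h (limma, adjusted p = 0.002187). It was well above background in WT 4 h only and entered the test through that group, so this gap is in part set by the filter. Under normexp the response differences of *AT5G19890* and *AT5G19880* were 2.75 and 2.02, on the same side of 0.

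Low-oxygen genes fell in WT in 7 of 16 cases and in *agb1* in none. Over all genes 3.99% fell in WT and 0.516% in *agb1*, so none of 16 in *agb1* says little by itself. The 16 had a median response difference of 1.02 and a median gap of -1.28 at 0 h. Of these 16, 2 met the looser rule, and this number rested on the *agb1* 0 h arrays: it was 9 without replicate 3 and 0 with replicate 3 alone. *SUS4*, a sucrose synthase gene of this group, read 2.94, 3.62 and 2.72 in *agb1* 4 h, 2.84, 2.86 and 4.19 in *agb1* 0 h, 4.15, 3.85 and 2.80 in WT 4 h and 5.85, 5.63 and 5.95 in WT 0 h. Its WT 0 h arrays were above all others, the gap at 0 h being -2.29 (adjusted p = 0.04863).

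Nuclear photosynthesis genes had a higher response in *agb1* in 11 of 57 cases and a lower one in none (median 0.96), and none of the 11 had a called salt response in either genotype. Their median gap was -0.69 at 0 h and 0.26 at 4 h, and the summed shoot markers given above moved with them. Most of those markers are photosynthesis genes themselves, *LHCB3* being in both sets, so the marker sum is not a separate measure. The part of shoot tissue in this result was not tested. Fewer cells of a type and less RNA per cell cannot be told apart in whole roots. The count was 31 when WT 4 h replicate 1 was left out and 23 when *agb1* 0 h replicate 3 was. It was 3 and 5 without replicates 2 and 1 of *agb1* 4 h, 4 without WT 0 h replicate 2 or WT 4 h replicate 3, and 0 with *agb1* 0 h replicate 3 alone.

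Growth genes showed little by these rules. None of 72 cell cycle genes, 30 root stem cell genes and 49 auxin genes had a different response by the looser rule, with a median of 0.09 for the cell cycle genes; under normexp 8 cell cycle, 3 stem cell and 3 auxin genes were higher. The 9 genes for G protein subunits and the regulator RGS1, *AGB1* among them, also gave no call (median 0.21). Of 35 unfolded protein response genes 1 was lower, and *BZIP17*, a membrane-bound factor of that response and of salt stress, had a response difference of -0.07 (adjusted p = 0.9436).

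Slides 1 and 3 held all arrays of replicates 1 and 3. The response difference computed on each slide alone had the sign of the fitted one for all 45 genes past the adjusted threshold on slide 1 and for 45 on slide 3. Over all genes tested the shares were 79.3% and 80.9%. These arrays also entered the fit that chose the 45, so their signs are in large part set by the choice and are no separate check. On slides 1 and 3 the response difference was -5.77 and -5.43 for *ECP63*, -2.06 and -2.04 for *IGMT2* and 1.96 and 1.95 for *UPM1*. For genes outside the 45 it was -3.73 and -3.41 for *GPAT5*, -4.70 and -3.30 for *TAT3* and -1.73 and -0.94 for *HKT1*. All 45 kept their sign with the slide as a block, though none then passed the adjusted threshold. The number of genes past that threshold was 1 to 2 lower and 1 to 3 higher without any 1 of the WT 0 h arrays, 2 lower and 4 higher when *agb1* 4 h replicate 2 was dropped, and 80 lower and 37 higher when *agb1* 0 h replicate 3 was.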

How the data were processed

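Total root RNA was hybridised to Agilent one-colour arrays, 12 in all. The deposited intensity values are gProcessedSignal, background-corrected by the authors with Agilent Feature Extraction (10.7.1.1 in the file headers, 9.1 in the submitters' processing notes). Here each log2 intensity was set against the 75th percentile of the same array. Outlier spots were dropped, and a probe was kept only where every array of some group was well above background. Spots of a probe were averaged and the brightest probe of a locus kept, leaving 25183 genes. Of the probes passing this filter, 53 had an outlier spot on an array and were left out. Locus names came from RefSeq (TAIR10.1 table): 34358 of 43603 probes matched 25433 loci. The 75th percentile of intensity was 1772 to 3582, and 74.07 to 76.1% of spots were well above background; the number of arrays limits the precision.

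Group means were fitted with limma 3.58.1 in R 4.3.3, with Benjamini-Hochberg adjustment over all genes. The script was tested on simulated data. The labels give the arrays of a group replicate numbers only. The published methods describe independent biological replicates, and neither source sets the near-identical pair apart. At 4 h, same-numbered *agb1* and WT arrays deviated together (correlations 0.582, 0.351 and 0.374). The replicate block was an alternative fit that covered all arrays, 0 h included. Values not named as blocked come from the fit without a block. For a probe not well above background in a group, a lower bound of the fold was computed from the lowest signal well above background on each array. Alternatives were other background corrections, scalings, filters and probe summaries, replicate and slide blocks, 12 samples in place of 11, a pair of WT 0 h arrays counted as 1 sample, and leaving out each array.

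Genes were named as follows: loci past the adjusted threshold and above background on every array, up to 15 a direction; up to 4 members of each list past the looser rule, by size; *AGB1* and *BZIP17*. Genes with a group not above background are given with that remark. Other genes were chosen after their values were seen. The members and lists were chosen with earlier results of these data known. Suberin and Casparian strip genes were named from the list of both.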

Additional observations from a re-analysis of the deposited data

Results flagged for a closer look

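The salt response differed between *agb1* and WT for 45 genes or probes by the test of the difference itself (limma, adjusted p under 0.05), and each is given with its fitted response difference, *agb1* minus WT, on the log2 scale. Lower responses in *agb1* were fitted for *ECP63* (-5.45), *AT5G22545* (-5.07), *LOX3* (-4.02), *HAI1* (-3.86), *AT5G22520* (-3.70), *AT3G18950* (-3.62), *AT3G28600* (-3.17), *EMB1290* (-2.88), *AT3G43250* (-2.67), *MYB2* (-2.20), *IGMT2* (-1.99), *AT3G53600* (-1.89), *AT1G52565* (-1.70), *AT1G51913* (-1.63) and *AT1G53060* (-1.61). Higher responses were fitted for probe A_84_P762857 (4.17), *AT5G01740* (3.71), *CWLP* (3.13), *AT5G19890* (3.08), *PYL6* (2.74), *FHL* (2.50), *AT3G20380* (2.22), probe A_84_P798380 (2.17), probe A_84_P854972 (1.99), *UPM1* (1.89), probe A_84_P758905 (1.82), *G6PD3* (1.53), *AT1G72220* (1.44), probe A_84_P761348 (1.43), *TAC1* (1.32), *AT3G05685* (1.31) and *PGSIP8* (1.31).

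The rest had a group in which no array was well above background, so that their fitted numbers are no folds. These numbers were -6.31 for *ESE1*, -6.27 for *EP1*, -5.62 for probe A_84_P765683, -5.47 for *AT2G33780*, -4.75 for *AT5G19880*, -4.36 for *AT2G14290* and -2.68 for *AT1G51920* on the lower side. On the higher side they were 4.82 for *PPT2*, 4.22 for *AT4G11393*, 3.19 for *AT4G09120*, 3.14 for *AT5G38950*, 2.53 for *AGL39* and 2.39 for *AT2G31862*.

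Among the 22 lower responses the gap between the genotypes was carried by the 4 h level for 9, by the 0 h level for 3 and by both for 10. Among the 23 higher responses the numbers were 1, 13 and 9.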

How the results depend on the processing

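Leaving out each array in turn, the limits were as follows for counts of genes. At adjusted p under 0.05, 1 to 80 responses were lower and 1 to 37 higher in *agb1*; the low ends came without a WT 0 h array and the high ends without *agb1* 0 h replicate 3. By the looser rule the ranges were 751 to 1361 lower and 444 to 1072 higher. They were 497 to 1142 for lost, 124 to 208 for weaker, 9 to 109 for reversed, 2 to 36 for stronger and 13 to 179 for gained responses. The 4 h level carried 231 to 395 lower and 59 to 206 higher responses, the 0 h level 239 to 675 and 277 to 785, and both 260 to 558 and 103 to 435. In *agb1* 90 to 598 genes rose and 42 to 334 fell, against 906 to 1565 and 637 to 1156 in WT. Between genotypes 34 to 515 genes were lower and 10 to 299 higher in *agb1* at 0 h, and 126 to 291 lower and 36 to 152 higher at 4 h. The largest shifts came without *agb1* 0 h replicate 3 (109 reversed, 36 stronger, 179 gained), WT 4 h replicate 1 (1142 lost) and WT 0 h replicate 3 (497 lost). An arm left with 1 sample was assumed to vary like the others.

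Normexp background correction gave 0 lower and 0 higher limma calls at adjusted p under 0.05, and none of the 45 calls was kept, though 34 kept their sign. By the looser rule it gave 312 lower and 4535 higher, so that 6.44% were lower, against 59.9% in the values reported. It left 385 lost, 32 weaker, 0 reversed, 0 stronger and 1 gained responses. Carried by 4 h were 79 lower ones, by 0 h 122 lower and 909 higher, and by both 111 lower and 3562 higher. It called 12 rises and 6 falls in *agb1*, against 411 and 482 in WT, and between genotypes 5 lower and 2 higher at 0 h and 13 lower and 7 higher at 4 h. The cause was not tested.

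With probes above background on all 12 arrays only, fewer genes being tested, there were 10 lower and 11 higher adjusted calls, 101 weaker, 16 reversed, 0 stronger and 30 gained responses, and 53 higher ones carried by 4 h. Without a filter, 151 higher responses were carried by 4 h, 188 genes were lower and 77 higher in *agb1* at 0 h, and 101 higher at 4 h. With 12 samples there were 168 and 95 adjusted calls, 47 reversed, 11 stronger and 183 gained responses, 888 rises and 510 falls in *agb1*, 1288 lower and 961 higher genes at 0 h and 248 higher at 4 h. With WT 0 h replicates 1 and 3, or 2 and 3, counted as 1 sample, settings added after the data were seen, there was 1 lower and 1 higher adjusted call, 2 of the 45 remaining called, with 13 reversed and 29 or 27 gained responses. In *agb1* 175 or 179 genes then rose and 74 or 75 fell, against 985 or 971 and 657 in WT, and between genotypes 35 or 45 genes were lower and 10 or 16 higher at 0 h and 160 or 167 lower and 66 or 79 higher at 4 h. With *agb1* 0 h replicate 3 alone, also added afterwards, there were 48 lower adjusted calls, 9 stronger and 99 gained responses, 47 higher ones carried by 4 h, 149 rises in *agb1*, and 130 lower and 90 higher genes at 0 h.

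Same-numbered arrays of all groups did not deviate together (correlations -0.581 to 0.582 over 18 pairs, 7 of them over 0.1), and the same-numbered array was the best match in 19 of 36 comparisons, a hint from the data at most. With the replicate block there were 12 higher adjusted calls, 20 of the 45 remaining called, 24 gained responses, 171 rises and 69 falls in *agb1*, 101 lower and 51 higher genes at 0 h and 103 higher at 4 h. With the slide as a block there were 0 lower and 0 higher adjusted calls, 401 lost, 9 reversed and 3 gained responses, 79 rises and 18 falls in *agb1* against 679 and 456 in WT, 7 lower and 3 higher genes at 0 h and 102 lower and 31 higher at 4 h. Quantile normalization, median scaling and the mean of all probes kept 39, 41 and 44 of the 45 calls.

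Under normexp these response differences changed sign, to 0.11 for *AT5G22545*, 1.17 for *EMB1290*, 0.48 for *AT3G43250*, 1.78 for *AT1G51913*, 0.40 for *AT1G53060*, 0.48 for *HAI3*, 0.96 for *HAI2*, 1.38 for *ACS8*, 0.92 for *WRKY43*, 1.1 for *BON3*, 1.51 for *FLS2*, 0.40 for *MYB121*, 2.22 for *NAC071*, 2.14 for *MKK7*, 2.89 for *XTH29*, 0.86 for *XTH32*, 2.68 for *NIP4;2*, 2.48 for *KT2/3*, 0.55 for *NRT1.7*, 2.59 for *PEN3*, 0.28 for *RR16*, 1.95 for *RR17*, 1.54 for *ProT3*, 2.71 for *BZIP49*, 1.64 for probe A_84_P765683, 0.99 for *AT1G51920*, 2.49 for *AT2G14290*, 1.27 for *AT2G33780*, 1.04 for *EP1* and 2.02 for *AT5G19880*. *BZIP17*, with no called difference, ranged with 1 array left out between -0.34 (*agb1* 0 h replicate 3) and 0.10 (WT 4 h replicate 3), and was 0.20 with *agb1* 0 h replicate 3 alone. The named genes otherwise kept their direction, with 2622 values on the same side of the threshold and 767 no longer past it. Low signal over background limits the genes with a group not above background.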

Other observations

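Some of the lower responses belonged to genes next to each other on the chromosome in the RefSeq order. *AT5G22520* and *AT5G22545* lay 3 genes apart, and the 2 genes between them, chosen after their values were seen, also had response differences below 0: *AT5G22530* at -2.95 (adjusted p = 0.05603) and *AT5G22540* at -2.71 (adjusted p = 0.05817). Both of those were lower in *agb1* than in WT at 4 h, with gaps of -2.39 (adjusted p = 0.007453) and -3.45 (adjusted p = 0.00163).

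*AT1G51913* and *AT1G51920* lay 2 genes apart, with *AT1G51915* between them at -3.03 (adjusted p = 0.1781) and lower in *agb1* at 4 h (adjusted p = 0.004619), where 1 of the 3 *agb1* arrays was well above background. *EP1* and *EMB1290* lay 10 genes apart in a cluster of cysteine-rich receptor-like kinase genes. Another member of the cluster, *CRK11*, gave -1.06 (adjusted p = 0.1062), with a gap of -1.37 at 4 h (adjusted p = 0.002937).

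The 9 genes of the root triterpene clusters had a median gap of 2.63 at 0 h and 0.00 at 4 h, with no gene called at either time. By the looser rule 3 of them had a lower response in *agb1*. They included *PEN3*, which was well above background in *agb1* 0 h only and so entered the test through that group. The number with a lower response became 7 when WT 4 h replicate 1 was dropped, 5 when *agb1* 0 h replicate 3 was, and 1 when *agb1* 4 h replicate 1 was. Under normexp 2 were lower and 1 higher. Of 37 tau and phi glutathione transferase genes 5 also had a lower response (3 on dropping replicate 3 of WT 0 h or of WT 4 h, 8 on dropping WT 4 h replicate 1), among them *GSTU6*, which was 2.20 higher in *agb1* at 0 h (adjusted p = 0.02932), and *GSTU5*, which was 1.86 higher (adjusted p = 0.02932).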
